A study of Mus musculus with 6 samples.

Results

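Endothelial cells line the vessels and chambers of the heart and hold together through adhesion molecules at their cell borders. VE-cadherin and claudin-5 close the junction, PECAM1 and ESAM lie at its edge, and the TIE receptors pass on signals from angiopoietins that govern how tightly the layer is sealed. The 10 genes described here, Pecam1, Cdh5, Emcn, Tek, Tie1, Egfl7, Esam, Cldn5, Eng and Adgrf5, encode junction proteins, receptors and surface or secreted proteins of these cells. They were taken by name, and all 10 were found among the 27179 genes of the bulk count table and in both single-cell tables.

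Immature cardiomyocytes (imCMs) from newborn (P1) C57BL/6 mouse hearts were co-cultured with cardiac fibroblasts, either neonatal ones (NFs, from P1 hearts) or adult ones (AFs, from P56 hearts), giving 2 bulk RNA libraries of imCMs grown with NFs (imCM-NF) and 2 of imCMs grown with AFs (imCM-AF). Single cells, loaded into the wells of 2 ICELL8 chips, gave a further library labelled cardiomyocytes and one labelled fibroblasts. The groups carry no transgene or drug; they differ in the age of the fibroblasts and, per the study's methods, in plating density, since more AFs than NFs were plated per imCM. Fibroblasts were passaged before use and the cells were sorted by dye, so endothelial cells were not a population that either label names. Nothing in the labels says whether the 2 libraries of a group came from separate cultures, so p-values measure the spread between these libraries.

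Bulk total counts ranged from 9278909 to 12088577. The report of each chip gives every well a Type, and there were 16 Types other than controls, of 7 kinds: AFNCM, NFNCM and NCM0 on the cardiomyocytes chip, and AF, NF, AF0 and NF0 on the fibroblasts chip. NCM was read as the cardiomyocytes, since the bulk libraries of imCMs carry it in their titles, and AF or NF as the fibroblasts they were grown with. The titles do not define these letters, and the paper itself uses NCM for non-cardiomyocytes. The labels do not explain the 0. They do not say that the NCM0, AF0 and NF0 wells held co-cultured cells, so these kinds are not read as co-cultures here. A total of 2247 of 2462 wells other than controls were kept, with a median of 18238 unique molecular identifiers (UMIs) per well on the cardiomyocytes chip and 27809 on the fibroblasts chip. The chips share 269 well barcodes, and each chip is 1 library, so wells of different Types are not replicates and were compared without a test. Intervals below are exact binomial for shares and exact Poisson for UMIs, at 95%, and cover counting error only. Beside a count of 0, the limit given is 3 counts over the number of wells.

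The members lie on different chromosomes, apart from Egfl7 with Eng and Tek with Tie1 (GRCm38, the same assembly as mm10). Cdh5 is at chr8:104101613-104144504, Pecam1 at chr11:106654213-106715281, Tie1 at chr4:118471191-118489849, Cldn5 at chr16:18776847-18778262 and Egfl7 at chr2:26581083-26592682. Exons of 2 members overlap those of other genes, Egfl7 with 4 genes that include Mir126a and Agpat2, and Eng with Fpgs on the opposite strand over 61 bases. The bulk libraries were made with a kit that does not mark strand, so reads in those overlaps cannot be assigned to one gene. The 150 bases before the transcript start, from RefSeq on GRCm38.p6 and written on the strand of the gene, are shown for the 2 called members with a single promoter entry, Cldn5 and Tie1, for Tek, which lay at the fold threshold, and for Emcn and Eng, which were not called. Capitals mark GGAA or its reverse complement TTCC, the core of the site that ETS factors, regulators of endothelial genes, bind.
Cldn5 (chr16:18776697-18776846, plus strand): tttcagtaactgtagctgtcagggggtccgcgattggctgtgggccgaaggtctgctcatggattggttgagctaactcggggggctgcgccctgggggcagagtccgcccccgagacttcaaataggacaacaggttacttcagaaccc
Tie1 (chr4:118489850-118489999, minus strand): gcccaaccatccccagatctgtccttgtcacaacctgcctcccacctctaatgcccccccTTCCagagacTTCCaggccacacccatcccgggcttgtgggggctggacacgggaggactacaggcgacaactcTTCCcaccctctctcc
Tek (chr4:94739139-94739288, plus strand): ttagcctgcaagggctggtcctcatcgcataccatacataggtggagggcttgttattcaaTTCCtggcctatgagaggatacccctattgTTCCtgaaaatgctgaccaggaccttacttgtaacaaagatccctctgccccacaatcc
Emcn (chr3:137340928-137341077, plus strand): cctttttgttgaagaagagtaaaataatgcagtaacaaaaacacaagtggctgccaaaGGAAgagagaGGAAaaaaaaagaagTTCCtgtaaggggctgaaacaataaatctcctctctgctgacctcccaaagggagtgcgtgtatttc
Eng (chr2:32646445-32646594, plus strand): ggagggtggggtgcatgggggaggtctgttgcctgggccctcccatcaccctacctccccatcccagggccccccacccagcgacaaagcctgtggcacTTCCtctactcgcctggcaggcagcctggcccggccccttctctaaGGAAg
Tie1 and Emcn held 3 such cores, Tek and Eng held 2, and Cldn5 held 0 in this window. GGAA on either strand was present in 80.8% of 32851 promoter windows of this length, so its presence does not set the members apart. The longer form ACNGGAAG, which contains GGAA, was found on either strand in 4.58% of all windows and, of the 7 members with a promoter entry, in Egfl7 only. A match is a description of the letters and not a binding site.

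To ask whether expression of these genes differed between imCMs grown with AFs and with NFs, the bulk libraries were compared. Expression of all 10 genes was lower in both imCM-AF libraries than in both imCM-NF libraries, an arrangement that 33.8% of all 14041 tested genes showed. Of the 10, Cldn5, Pecam1, Egfl7, Cdh5 and Tie1 were called lower (adjusted p under 0.05 together with a log2 change beyond 0.58 in size), whereas 4.99% of all tested genes were called lower. The median log2 fold change of the 10 was -0.62, against 0.0011 over all tested genes. In bulk samples, fewer cells of a type and less RNA per cell cannot be told apart.

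Among the adhesion genes, Pecam1, which encodes the platelet and endothelial adhesion molecule CD31, had 175 and 187 CPM (counts per 1000000 reads, with TMM scaling) in the imCM-NF libraries and 100.8 and 100.5 CPM in the imCM-AF libraries. Its log2 fold change was -0.84 ± 0.096 (SE), with an adjusted p of 7.87e-06 in edgeR's quasi-likelihood test. Cdh5, which encodes VE-cadherin, the main cadherin of endothelial junctions, had 354 and 368 CPM with NFs and 216 and 214 CPM with AFs. Its log2 fold change was -0.75 ± 0.10, with an edgeR adjusted p of 5.88e-05. For both genes the gap between groups was several times the spread between the libraries of a group.

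Cldn5, a tight junction claudin, had the fewest reads of the members in bulk, with 4.68 and 4.79 CPM with NFs and 1.64 and 1.09 CPM with AFs. Those values rest on 42 and 58 reads with NFs and on 18 and 13 reads with AFs. It had the largest fold change of the 10, -1.80 ± 0.30 on the log2 scale (edgeR adjusted p = 0.000387). Esam, an adhesion molecule of endothelial cells and platelets, gave a different picture: it had 45.3 and 44.6 CPM with NFs and 40.3 and 30.3 CPM with AFs. The imCM-AF libraries of Esam differed from each other more than imCM-AF library 1 differed from the imCM-NF libraries. On the log2 scale it changed by -0.35 ± 0.12 (edgeR adjusted p = 0.0404), and the adjusted p ranged from 0.00229 to 0.579 over 11 alternatives. The highest came without imCM-AF library 2, where the log2 fold change was -0.15, and the lowest without imCM-AF library 1, where it was -0.55.

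Among the receptors, Tie1, an orphan receptor tyrosine kinase that pairs with TEK, had 113 and 112 CPM with NFs and 74.5 and 67.2 CPM with AFs, which is -0.67 ± 0.095 in log2 fold change (edgeR adjusted p = 8.04e-05). Tek, the angiopoietin receptor TIE2, had 33.2 and 34.8 CPM with NFs and 23.8 and 21.8 CPM with AFs. Its log2 fold change of -0.58 ± 0.11 (edgeR adjusted p = 0.00124) stopped just short of the fold threshold, and it passed that threshold in 6 of 11 alternatives, among them the fits without imCM-NF library 1 (-0.61) and without imCM-AF library 1 (-0.63). Eng, the TGF-beta co-receptor endoglin, had 516 and 581 CPM with NFs and 498 and 417 CPM with AFs, and its difference did not pass the test (log2 fold change -0.26 ± 0.12, edgeR adjusted p = 0.127). Adgrf5, an adhesion G-protein-coupled receptor of capillaries, had 61.2 and 63.5 CPM with NFs and 47.9 and 47.0 CPM with AFs, a change of -0.39 ± 0.094 on the log2 scale that was under the fold threshold (edgeR adjusted p = 0.00515).

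Of the remaining genes, Egfl7, a secreted protein of endothelial cells, had 87.5 and 95.5 CPM with NFs and 56.7 and 52.1 CPM with AFs (log2 fold change -0.75 ± 0.097, edgeR adjusted p = 2.93e-05). Emcn, the sialomucin endomucin of veins and capillaries, had 105 and 110 CPM with NFs and 100 and 93.7 CPM with AFs, and did not pass the test (log2 fold change -0.15 ± 0.094, edgeR adjusted p = 0.251). Thus 5 members were called lower, Tek, Esam and Adgrf5 passed the adjusted p only, and Emcn and Eng passed neither threshold. For Adgrf5 the edgeR adjusted p was 0.0526 without imCM-NF library 2 and 0.0675 without imCM-AF library 2, so that it then passed neither.

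Scaled to a kilobase of annotated exon, the level of Eng was the highest, between 103 and 143 CPM per kilobase in the 4 libraries, followed by Cdh5 with 50.8 to 87.6 CPM per kilobase. In the imCM-NF libraries Pecam1 came next with 28.03 and 29.95, then Egfl7 with 24.4 and 26.7, Tie1 with 22.9 and 22.8, Emcn with 19.3 and 20.4 and Esam with 15.8 and 15.6 CPM per kilobase, with no overlap between neighbours. In the imCM-AF libraries Emcn was the highest of these 5, with 18.5 and 17.3 CPM per kilobase, followed by Pecam1 with 16.2 and 16.1, and the range of Tie1, 13.7 to 15.1, overlapped that of Egfl7, 14.5 to 15.8, and that of Esam, 10.6 to 14.1 CPM per kilobase. Adgrf5, with 5.22 to 7.05 CPM per kilobase, lay above Tek, with 4.62 to 7.38, in the imCM-AF libraries and overlapped it in the imCM-NF libraries, and Cldn5 was lowest with 0.771 to 3.38 CPM per kilobase.

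**Figure D1:**
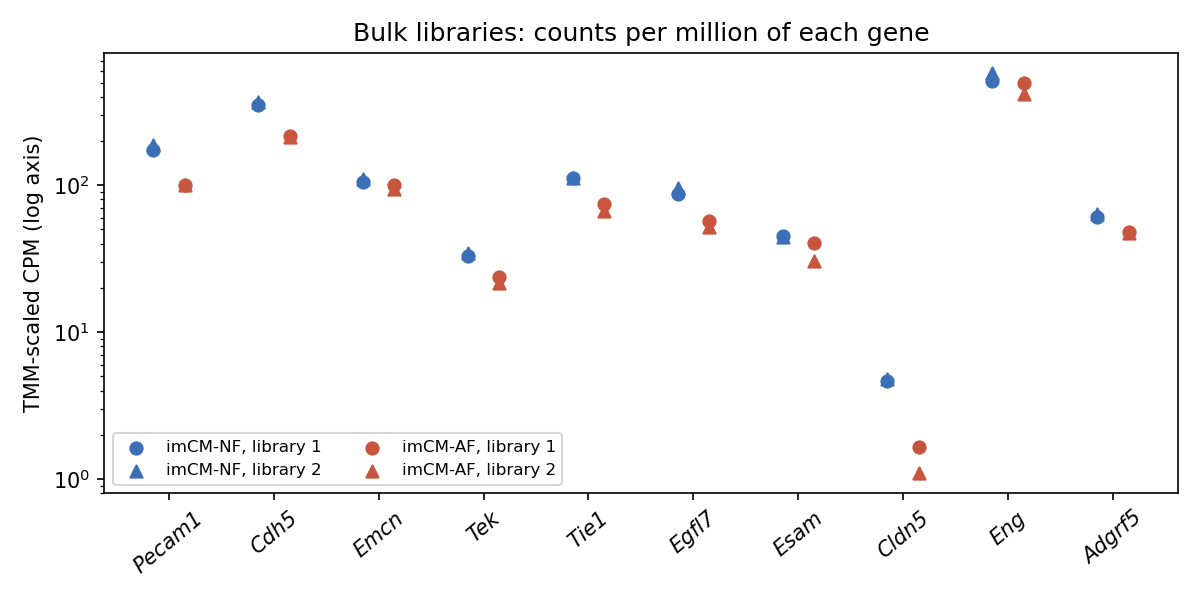
TMM-scaled CPM (log axis) of each of the 10 genes in the 2 imCM-NF libraries (blue) and the 2 imCM-AF libraries (red); circles are library 1 and triangles library 2. For each gene both red points lie below both blue points, with the largest fold change for Cldn5 and the smallest for Emcn.

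Other genes of the endothelial pathway were counted from a list of 86 ligands, receptors, junction genes, transcription factors and further endothelial genes, of which 82 were tested. Of these, 19 were called lower and 2 were called higher, where 4.99% and 6.15% of all tested genes were called lower and higher, and the median log2 fold change of the list was -0.28. By group, the genes called lower were 6 of 20 receptors, 1 of 19 junction genes, 4 of 14 transcription factors, 6 of 14 further endothelial genes and 2 of 15 ligands.

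Ligands of the members' receptors did not move as 1 group. Angpt2, the context-dependent angiopoietin that binds TEK, had 47.5 and 47.3 CPM with NFs and 34.3 and 30.9 CPM with AFs (log2 fold change -0.54 ± 0.10, edgeR adjusted p = 0.00103), under the fold threshold, and Angpt1, the activating angiopoietin, had between 1.73 and 2.56 CPM in the 4 libraries and did not pass the test. Of the ligands of endoglin's receptor complex, Bmp10 was called higher, from 2.34 and 2.40 CPM to 4.38 and 4.37 CPM (log2 fold change 0.88 ± 0.26, edgeR adjusted p = 0.0206). Tgfb1, Tgfb3 and Bmp6 had log2 fold changes of -0.52, -0.28 and -0.39, each with an adjusted p under 0.05 and none past the fold threshold, and Bmp4, Bmp2 and Tgfb2 did not pass the test.

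Of the growth factors of other endothelial receptors, Vegfa, the main endothelial growth factor, rose from 341 and 284 CPM with NFs to 500 and 586 CPM with AFs (log2 fold change 0.80 ± 0.13, edgeR adjusted p = 0.000204), and Pgf, placental growth factor, fell from 26.2 and 27.0 CPM to 11.96 and 12.3 CPM (-1.14 ± 0.13, adjusted p = 8.35e-06). Apln, the apelin peptide of sprouting endothelium, fell from 47.3 and 51.6 CPM to 32.4 and 30.5 CPM (log2 fold change -0.66), while Vegfb, Vegfc and Vegfd did not pass the test. Angptl1 was below the filter on low counts.

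The other called genes with the largest fold changes were all lower. Nos3, endothelial nitric oxide synthase, fell by 1.19 on the log2 scale and Tm4sf1, a surface protein of endothelial and other cells, by 0.99. Nrp2, a co-receptor for VEGF-C and semaphorins, fell by 0.92, Ecscr by 0.89, Gja4, the connexin of arterial endothelium, by 0.88, and Ednrb, an endothelin receptor, by 0.85. Aqp1, a water channel, fell by 0.85, Notch4 by 0.83 and Ramp2, a co-receptor for adrenomedullin, by 0.80 on the same scale.

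Markers of other cells moved in the bulk libraries too. The summed level of 8 fibroblast markers was 15248 and 16715 CPM with NFs and 10656 and 8430 CPM with AFs; all 8 were lower and 4 were called lower. The 10 cardiomyocyte markers summed to 34157 and 24971 CPM with NFs and 33341 and 36744 CPM with AFs, and those groups overlapped; all 10 had a higher fitted level with AFs, and Pln and Ttn were called higher. The 6 of 7 macrophage markers that were tested summed to 65.3 and 80.5 CPM with NFs and 53.8 and 61.7 CPM with AFs, so that the groups did not overlap; 5 of the 6 were lower, and C1qa and C1qb, subunits of complement C1q, were called lower. The part of these differences in the members' values was not tested.

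In single wells, the same genes ran the other way. On the cardiomyocytes chip, every member was detected in a larger share of wells with AFs (AFNCM, 515 wells) than with NFs (NFNCM, 523 wells), and UPM (summed UMIs of a gene per 1000000 UMIs of the same wells) was between 1.86 and 8.10 times as high for the 9 members with at least 50 UMIs in both kinds together. For 8 of these 9, all but Tek, the level was higher in each of the 3 AFNCM Types than in each of the 3 NFNCM Types. Of the 12948 genes with that many UMIs, 14.1% were so arranged. Tek, with 220 UMIs in AFNCM and 24 in NFNCM wells, and Tie1, with 131 and 34, reached 50 UMIs through AFNCM wells. Over these members the median ratio was 3.40, against 1.09 over all such genes. The median number of UMIs per well was 19709 in AFNCM and 18770 in NFNCM.

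Cdh5 was detected in 16.2%, 21.9% and 11.7% of the wells of AFNCM1, AFNCM2 and AFNCM3, and in 4.92%, 4.76% and 8.14% of those of NFNCM1, NFNCM2 and NFNCM3. Its summed level was 87.8 UPM (83.1 to 92.6) in AFNCM wells and 25.8 UPM (23.1 to 28.7) in NFNCM wells. The lowest AFNCM Type lay above the highest NFNCM Type in both measures. Pecam1 was detected in 18.9%, 16.0% and 11.1% of the AFNCM Types and in 4.37%, 2.98% and 8.14% of the NFNCM Types, with 33.7 against 9.26 UPM. NFNCM3 was the highest of the NFNCM Types for both genes.

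Esam was found in 14.2%, 15.0% and 11.1% of AFNCM wells and in 2.19%, 2.98% and 6.98% of NFNCM wells, 52.0 against 10.6 UPM. Egfl7 was found in 16.2%, 20.3% and 20.6% of AFNCM wells and in 5.46%, 4.76% and 8.14% of NFNCM wells, 41.4 against 12.9 UPM. The Types of the 2 kinds did not overlap for either gene. Cldn5 was rare throughout, in 19 of 515 AFNCM wells (3.69%, 2.24 to 5.70) and 7 of 523 NFNCM wells (1.34%, 0.540 to 2.74), and those intervals overlap.

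Adgrf5 was detected in 11.5%, 14.4% and 13.3% of AFNCM wells and in 3.28%, 2.38% and 5.81% of NFNCM wells, and had the largest ratio of summed UMIs, 82.5 against 10.2 UPM. Tie1 was detected in 8.11%, 8.02% and 7.78% of AFNCM wells and in 3.28%, 1.79% and 2.33% of NFNCM wells. Tek was detected in 6.08%, 7.49% and 3.33% of AFNCM wells and in 1.09%, 0.595% and 2.91% of NFNCM wells. For Tek the level in AFNCM3, 2.89 UPM, lay below that in NFNCM3, 3.25 UPM, and 1 well gave 28.2% of all Tek UMIs of the AFNCM kind.

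Emcn was detected in 16.9%, 17.1% and 12.2% of AFNCM wells and in 2.73%, 2.38% and 7.56% of NFNCM wells. Of the Emcn UMIs in NFNCM wells, 50.9% came from 1 well, and without it the level was 8.85 instead of 17.9 UPM, against 47.9 instead of 52.5 UPM in AFNCM wells without their own highest well. Eng was detected in 19.6%, 27.3% and 27.2% of AFNCM wells and in 10.9%, 8.33% and 15.1% of NFNCM wells, and had the smallest ratio of the members, 1.86. NCM0 wells were read as cardiomyocytes from their name, and held 40310.5 UPM of the 10 cardiomyocyte markers and 889 UPM of the 8 fibroblast markers. Their shares were 0.775% for Tek, 1.55% for Cldn5 and for Esam, 1.94% for Tie1, and 2.71% for Cdh5 and for Emcn. The shares were 3.49% for Pecam1, 3.88% for Egfl7, 5.81% for Adgrf5 and 13.2% for Eng, at a median of 16045 UMIs per well.

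**Figure D2:**
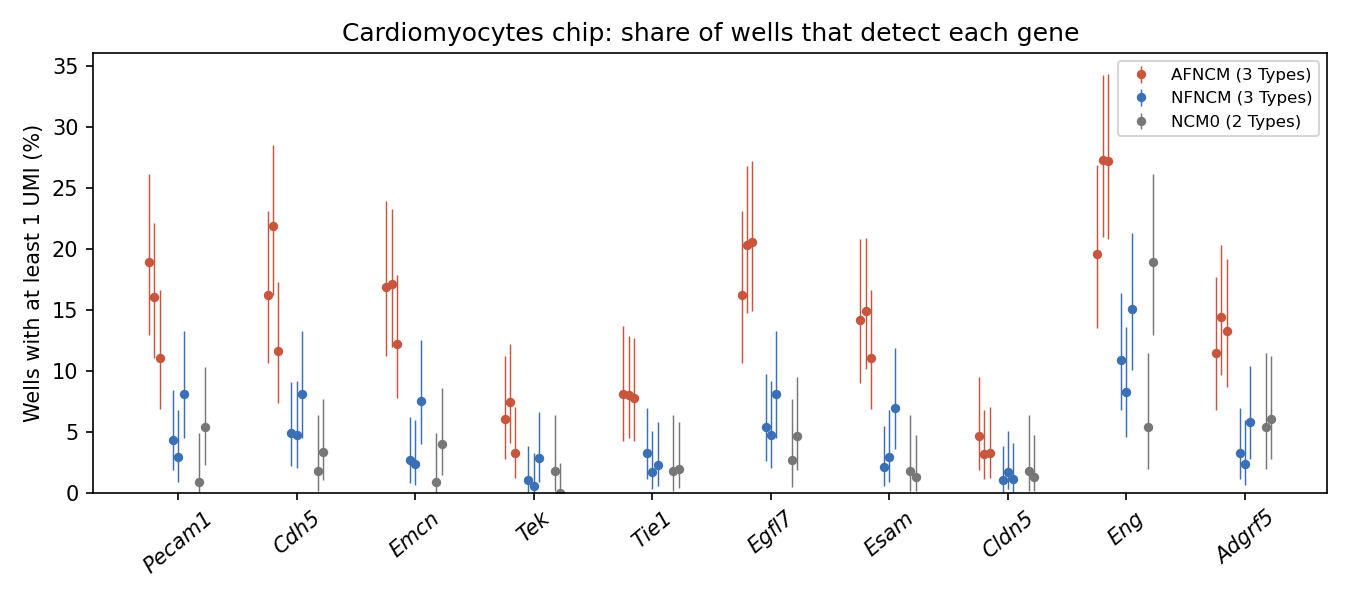
Share of wells (%) with at least 1 UMI of each gene on the cardiomyocytes chip; each point is 1 Type and bars are exact binomial 95% intervals. The 3 AFNCM Types (red) lie above the 3 NFNCM Types (blue) for every gene, while the NCM0 Types (grey) lie near or below NFNCM for most genes.

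**Figure D3:**
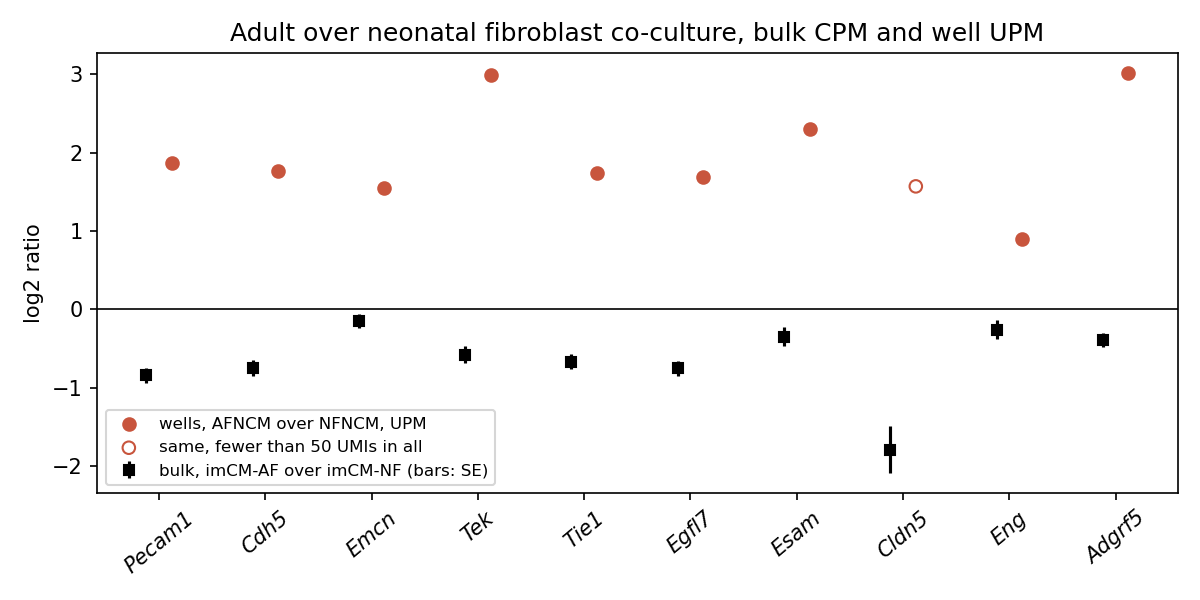
The log2 ratio of AF over NF co-culture for each gene, in bulk (black squares, bars are SE) and in wells from UPM (red circles; the open circle, Cldn5, has fewer than 50 UMIs). All bulk values lie below 0 and all well values above 0.

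The opposite directions were not limited to the 10 genes. Of the 505 genes that were called lower in bulk and had at least 50 UMIs, 131 (25.9%) were higher in every AFNCM Type than in every NFNCM Type and 21 (4.16%) were lower in every one. Of the 544 genes called higher in bulk, 154 (28.3%) were higher in every AFNCM Type and 37 (6.80%) were lower. Over all genes with that many UMIs the shares were 14.1% higher and 5.72% lower. Fibroblast markers also ran against the bulk in wells, summing to between 2093 and 2783 UPM in the AFNCM Types and between 731 and 1191 in the NFNCM Types. Macrophage markers summed to 451 UPM in AFNCM and 638 UPM in NFNCM wells, lower with AFs as in the bulk. Cardiomyocyte markers summed to 32843.5 UPM in AFNCM and 38560 UPM in NFNCM wells, lower with AFs, whereas their bulk groups overlapped. For macrophage and for cardiomyocyte markers the AFNCM and NFNCM Types overlapped. The part of any of these markers in the members' values was not tested. The bulk libraries were made from pooled cells and the wells from cells loaded singly. Per the methods and labels, the imCMs were separated from adhering cells before co-culture, the cells were later separated by a spin and sorted by dye, and for the chips wells were further chosen by imaging for single live cells.

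UMIs of a gene can also come from RNA set free by other cells, and the part of such RNA was not tested. As a description, wells of the cardiomyocytes chip were split at the median share of 10 cardiomyocyte markers over its kept wells. The split was chosen after the data were seen. In the upper part, Cdh5 was detected in 8.81% of 193 AFNCM wells and 4.30% of 302 NFNCM wells, and in the lower part in 21.4% of 322 AFNCM wells and 8.14% of 221 NFNCM wells. Adgrf5 was detected in 4.15% and 0.662% of the upper wells and in 18.6% and 8.14% of the lower wells. Of the members, only Tie1 had a lower share in AFNCM than in NFNCM in the upper part, 1.55% against 1.66%, and none did in the lower part. Median depth in the upper part was 29449 UMIs in AFNCM and 22003 in NFNCM. The 10 negative control wells had a median of 199 UMIs and 5052 UMIs in all. Among them, Pecam1 and Egfl7 had 1 UMI each, both in the same well. Summed over the 10 genes this is 396 UPM (47.9 to 1430), against 408 in AFNCM and 109 in NFNCM wells. At this depth the level in the controls cannot be told from that in either kind. The other 8 genes had 0 UMIs in the controls, which in 10 wells allows a share of up to 30%.

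The UMIs were concentrated in few wells. Of the 2247 kept wells, 1124 held at least 1 member, 143 held 5 or more, and 48 held 8 or more; these 143 wells carried 72.7% of the 20997 member UMIs. Wells with 5 or more members made up 9.71% (7.29 to 12.6) of AFNCM wells, 1.91% (0.921 to 3.49) of NFNCM wells and 0.775% (0.0940 to 2.77) of NCM0 wells. On the cardiomyocytes chip, the 62 wells with 5 or more members had a median level of the cardiomyocyte markers of 5378 UPM, against 45299 UPM in the 813 wells with no member. The median level of the fibroblast markers was 732 UPM in the former and 249.6 UPM in the latter, and macrophage markers had a median of 0 in both. Wells of this chip with 1 or 2 members had a fibroblast marker median of 737 UPM, and those with 3 or 4 had 1515 UPM. Median depth was 26898 UMIs in wells with 5 or more members and 14972 in wells with no member. The part of depth in the number of members detected was not tested here.

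At least 3 members were detected in 72 of 515 AFNCM wells (14.0%, 11.1 to 17.3) and in 21 of 523 NFNCM wells (4.02%, 2.5 to 6.07). Just at this limit, 49 AFNCM wells held 2 members, 16 held 3 and 6 held 4, and the NFNCM wells numbered 22, 7 and 4. By Type the share with at least 3 members was 15.5%, 17.6% and 8.89% in AFNCM1 to AFNCM3 and 3.83%, 1.79% and 6.40% in NFNCM1 to NFNCM3. The lowest AFNCM Type lay above the highest NFNCM Type, but their intervals overlap.

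Levels within wells with 5 or more members are a description, since those wells were chosen by the same genes. Cdh5 had 647 UPM in 50 such AFNCM wells and 740 in 10 such NFNCM wells, Egfl7 had 264 and 320, Pecam1 had 224 and 216, Emcn had 369 and 531, Tie1 had 54.6 and 64.5, and Eng had 127 and 186 UPM. Adgrf5 had 572 and 253, Esam 378 and 226, Tek 110 and 19.9 and Cldn5 7.95 and 2.48 UPM. In wells with fewer than 5 members, Cdh5 had 7.73 UPM in AFNCM and 3.08 in NFNCM, and Pecam1 had 6.44 and 2.69. Gaps were smaller in these wells for Esam, with 5.38 and 3.71 UPM, and for Eng, with 19.5 and 12.3. Tek alone ran the other way, with 0.985 UPM in AFNCM and 1.26 in NFNCM.

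**Figure D4:**
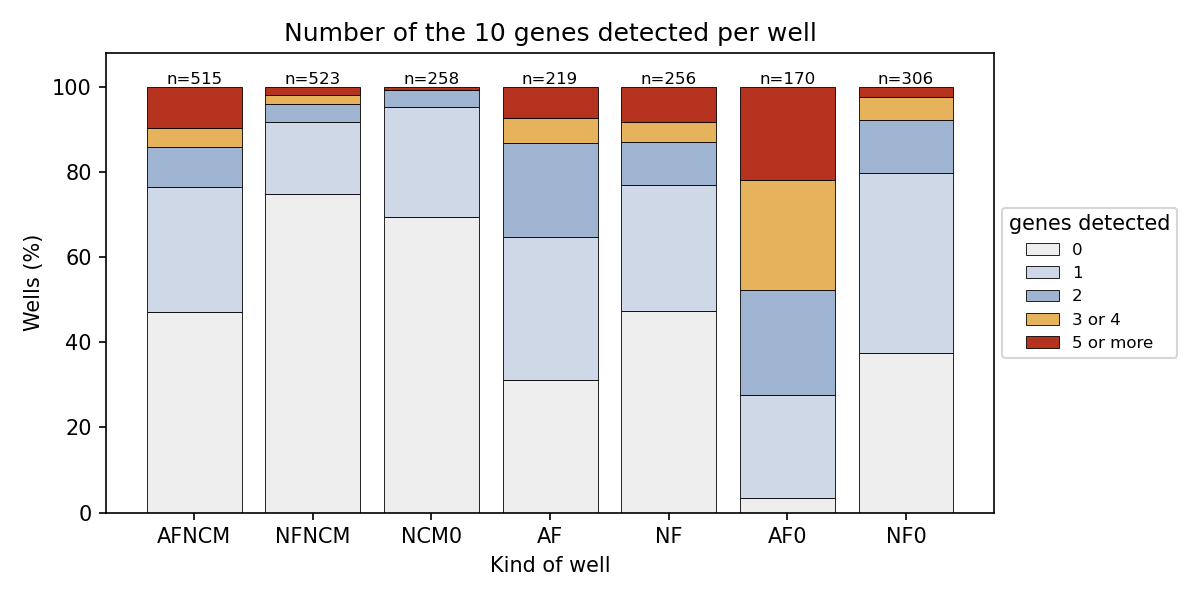
Share of wells (%) by the number of the 10 genes detected, for the 7 kinds of wells; n is the number of kept wells. Wells with 5 or more genes (dark red) take 9.71% of AFNCM, 1.91% of NFNCM and 21.8% of AF0 wells.

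On the fibroblasts chip, the AF0 wells stood above the others. At least 3 members were detected in 47.6% (39.9 to 55.4) of 170 AF0 wells, 7.84% (5.09 to 11.4) of 306 NF0 wells, 13.2% (9.05 to 18.5) of 219 AF wells and 12.9% (9.04 to 17.6) of 256 NF wells. At 2, 3 and 4 members there were 42, 30 and 14 AF0 wells, 38, 11 and 6 NF0 wells, 48, 9 and 4 AF wells, and 26, 6 and 6 NF wells. The median depth was 38627 UMIs in AF0, 32976 in NF0, 28923 in AF and 17156 in NF, and after each well was thinned to 5000 UMIs the shares were 20.7% in AF0, 2.43% in NF0, 7.21% in AF and 8.07% in NF. These used 169, 288, 208 and 223 wells, shallower wells being left out. AF0 remained the highest kind at equal depth.

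All 9 members with at least 50 UMIs were higher in both AF0 Types than in both NF0 Types, where 29.3% of 12350 genes were so arranged. The ratios ranged from 1.23 for Tek to 27.4 for Esam. The 50 UMIs were counted over both kinds together. Esam had 189 UMIs in AF0 and 10 in NF0 wells, and Tie1 had 48 and 8, so both passed mainly through AF0 wells. Cldn5, with 3 and 4 UMIs, was left out, and its Types overlapped. The count of members is therefore a description. Emcn was detected in 61.1% and 57.1% of the wells of AF0_1 and AF0_2 and in 7.73% and 12% of NF0_1 and NF0_2, with 273 and 159 UPM against 5.02 and 11.9. Cdh5 was detected in 36.1% and 43.9% of AF0 wells and in 6.63% and 12.8% of NF0 wells, with 170 and 98.1 UPM against 25.5 and 10.4. Adgrf5 followed, in 31.9% and 39.8% of AF0 wells against 5.52% and 6.40% of NF0 wells. For these 3 genes the AF0 Types lay far above the NF0 Types.

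Emcn and Eng spread more widely over AF0 wells than the other members. In AF0 wells with fewer than 5 members, Emcn was still detected in 47.4% and Eng in 74.4%, against 24.1% for Cdh5, 12.8% for Pecam1 and 4.51% for Tie1. After thinning, Emcn was detected in 36.7% of AF0 wells and 2.43% of NF0 wells. Eng was the most often detected member on this chip, in 79.2% and 80.6% of AF0 wells, 36.5% and 70.4% of NF0 wells, 49.6% and 50% of AF wells and 36.4% and 46.8% of NF wells. Thinned to equal depth, its shares were 34.9%, 21.2%, 23.1% and 18.8% in AF0, NF0, AF and NF.

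In AF and NF wells, most members did not separate. Only Egfl7, Esam and Eng, 3 of the 9 with at least 50 UMIs, were higher in both AF Types than in both NF Types. Of 11647 genes, 28.1% were so arranged. Esam had 133 UMIs in AF and 2 in NF wells, so it passed the UMI limit through AF wells alone. Cdh5 had 181 and 58.7 UPM in AF1 and AF2 and 147 and 40.8 in NF1 and NF2, so that the Types overlapped, and 1 well held 38.5% of the Cdh5 UMIs of AF wells. Without it the level in AF was 76.3 instead of 123 UPM, and that in NF without its own highest well was 80.6 instead of 96.3 UPM. Pecam1 had 33.0 and 8.22 UPM in the AF Types and 23.7 and 21.2 in the NF Types. Cldn5 was detected in 0 of 121 AF1 wells, which allows a share of up to 2.48%, and in 3.06% of AF2 wells. In NF1 and NF2 wells its shares were 1.85% and 1.06%. Its UPM was lower in both AF Types than in both NF Types, but rests on 3 UMIs in AF and 10 in NF wells.

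Esam differed between adult and neonatal fibroblast wells of every Type. It was detected in 0.617% and 1.06% of NF1 and NF2 wells and in 1.66% and 1.60% of NF0_1 and NF0_2 wells, but in 12.4% and 9.18% of AF1 and AF2 wells and 12.5% and 17.3% of AF0_1 and AF0_2 wells. Of the 21 NF wells with 5 or more members, 0 held an Esam UMI, which allows a share of up to 14.3%, whereas Cdh5 was detected in 90.5% and Emcn in 95.2% of them. Among the 16 such AF wells Esam was detected in 81.2%, and among the 10 such NFNCM wells in 100.0%. These wells were chosen by the same 10 genes, Esam among them, so the shares within them are a description only. Over all NF wells Esam had 2 UMIs, 0.281 UPM (0.0340 to 1.02), against 15.2 UPM (12.7 to 18.0) in AF wells. In AF0 wells 1 well gave 50.3% of the Esam UMIs, and without it the level was 11.4 instead of 22.5 UPM, against 0.411 instead of 0.822 UPM in NF0 wells, where the highest well held 5 of 10 UMIs.

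**Figure D5:**
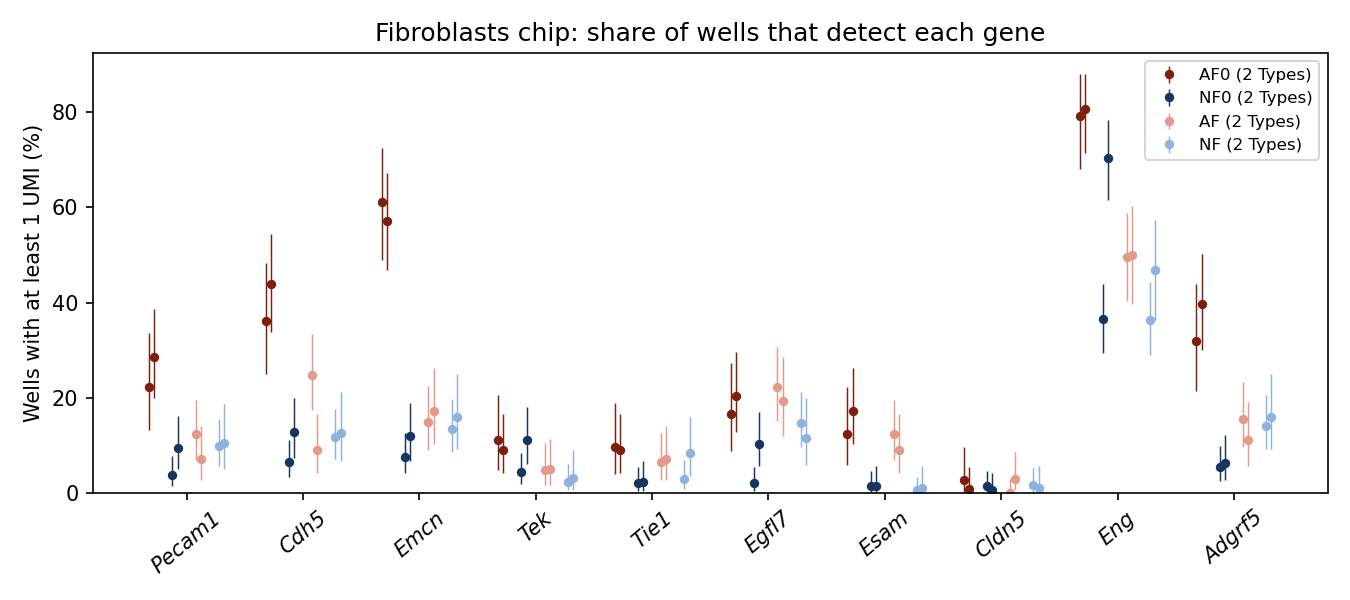
Share of wells (%) with at least 1 UMI of each gene on the fibroblasts chip; each point is 1 Type and bars are exact binomial 95% intervals. The AF0 Types (dark red) are highest for Emcn, Cdh5 and Adgrf5, and Esam is near 0 in the NF and NF0 Types (blue) only.

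The members were detected together. Of the 291 wells with Cdh5, 57.0% also held Emcn, 50.2% Adgrf5, 47.4% Egfl7 and 46.4% Pecam1, against 7.31%, 5.37%, 6.80% and 4.60% of the 1956 wells without it. Eng was less selective, in 63.2% of wells with Cdh5 and 27.7% of those without. Across the 2247 kept wells, the log level of Cdh5 had the closest relation to the mean of the other 9 members (Pearson's r = 0.77), Emcn, Adgrf5, Pecam1 and Egfl7 had r between 0.65 and 0.69, and Eng (r = 0.37) and Cldn5 (r = 0.084) had the weakest. The wells share their libraries and their zeros, so these are descriptions.

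The 10 other genes whose log level followed the mean of the members most closely, of 16528 detected in at least 20 wells, were Cd93, Ctla2a, Ecscr, Gimap6, Icam2, Adgrl4, Mmrn2, Myct1, Ctla2b and Plvap, with r between 0.54 and 0.70 over 2247 wells. Cd93, a surface glycoprotein, was highest, with r = 0.77 on the cardiomyocytes chip and 0.61 on the fibroblasts chip. In the bulk libraries all 10 had a negative log2 fold change, from -0.24 for Plvap to -0.89 for Ecscr, as did 7006 of all 14041 tested genes. Ecscr, Myct1 and Ctla2a were called lower, against 4.99% of all tested genes. Cd93, Ecscr, Icam2, Mmrn2 and Plvap were already in the list of 86 pathway genes, so they are not a separate set. Ctla2a and Ctla2b are close relatives in sequence, so reads between them could have been split in counting.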

How the data were processed

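Bulk values were deposited by the authors as raw counts per Entrez gene; per the study's methods, reads were aligned to mm10 with subread and unique reads were assigned to RefSeq genes with featureCounts. Single-cell values were deposited as UMI counts per Ensembl gene and well, made with STAR 2.5.2b and Subread 1.4.6-p1 per the labels. Bulk identifiers without a symbol, 1904 of 27179, held 3.52% of counts.

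Genes with CPM over 1 in at least 2 libraries were tested with edgeR 4.0.16 (TMM, quasi-likelihood test, group only, Benjamini-Hochberg over all 14041 genes). The study kept genes by RPKM and used limma, but its thresholds were used. The procedure was tested on simulated data. A well had to show 500 genes or more and alignment of over 50% of its screened read pairs, and its UMI sum had to lie no further than 2 SD from the mean, with 37 mitochondrial genes left out; the lower bound was below 0. Spike-in columns and the authors' table of fold changes were not used. Doublets were not called. Alternatives were another scaling, filter, tool or threshold, each library left out, thinning and other well filters.

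The members and lists were chosen with earlier results of these data known. All 10 members are named, with every ligand, the 12 called pathway genes of largest fold change and the 10 genes most alike over wells; endothelial markers include the members. Genes named beyond that as overlapping neighbours came from the annotation (GENCODE vM21).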

Additional observations from a re-analysis of the deposited data

Results flagged for a closer look

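In 8 of the 9 genes with at least 50 UMIs in AFNCM and NFNCM wells together, the bulk and the wells differed in direction: both imCM-AF libraries lay below both imCM-NF libraries, while each AFNCM Type lay above each NFNCM Type in UPM (summed UMIs per 1000000). The ratio of UPM, AFNCM over NFNCM, was 3.63 for Pecam1, 3.40 for Cdh5, 2.93 for Emcn, 3.34 for Tie1, 3.22 for Egfl7, 4.92 for Esam, 1.86 for Eng and 8.10 for Adgrf5. In bulk, imCM-AF over imCM-NF, the corresponding fold was 0.557 for Pecam1, 0.595 for Cdh5, 0.902 for Emcn, 0.629 for Tie1, 0.593 for Egfl7, 0.785 for Esam, 0.834 for Eng and 0.761 for Adgrf5. The difference between the bulk and the wells was not tested, since the wells come from 1 library. Cldn5, with fewer UMIs, was arranged in the same way, and for Tek the AFNCM and NFNCM Types overlapped in UPM.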

How the results depend on the processing

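Each of the 10 bulk fold changes was recomputed under 11 alternatives other than thresholds, and of 110 values 104 kept their direction and call, 6 gained the call, all of Tek, 0 lost it and 0 reversed. The number of members called ranged from 5 to 6 when 1 library was left out, that of other pathway genes from 16 to 23, and that of all genes from 879, without imCM-NF library 2, to 1929, with 988 without imCM-AF library 2, against 1564 with all libraries. With an adjusted p under 0.05 alone, 8 members, 40 other pathway genes and 3789 of all 14041 genes were called, and with an absolute log2 fold change over 1, 1 member, 2 other pathway genes and 565 of all genes. The groups share replicate numbers only, and deviations of same-numbered libraries correlated at -0.15. With the replicate block 6 members, 20 other pathway genes and 1430 of all 14041 genes were called. With the numbers crossed in the block, an alternative added after the data were seen, 5 members, 21 other pathway genes and 1668 of all 14041 genes were called.

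The share of wells with at least 3 members depended on depth and on the UMI limit. Thinned to 5000 UMIs it was 11.2% in AFNCM, 2.44% in NFNCM, 7.21% in AF, 8.07% in NF, 20.7% in AF0 and 2.43% in NF0. With at least 2 UMIs required it was 10.9% in AFNCM, 2.49% in NFNCM, 8.22% in AF, 31.8% in AF0 and 2.61% in NF0. With no filter on wells, and with no limit on UMIs, it was 12.2% in NF0. Over the members and all settings, the main one included, the share of wells was higher in AFNCM than in NFNCM wells in 50 of 50 values and UPM in 40 of 40. The settings use largely the same wells, so these values are not independent. Cldn5 rests on 24 UMIs in AFNCM and 7 in NFNCM wells.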
